A study of Mus musculus with 9 samples.

Results

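Frame-shifting alternative exons are cassette exons whose length is not divisible by 3, so that including or skipping one moves the reading frame of everything downstream. The exons described here are longer than 51 nt, had at least 20 reads in every library of an experiment, and had a percent spliced in (PSI, the share of a gene's transcripts that include the exon) above 10 and below 90 in that experiment's control cells. Of 54141 cassette exons listed, 2011 exons of 1546 genes met the rule in the first experiment, 1751 exons of 1349 genes met it in the second, 1370 met it in both and 2392 exons of 1781 genes met it in either. The exons were thus chosen by their control PSI and read depth, which are given only as a description.

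All libraries came from polyA RNA of N2A cells, a mouse neuroblastoma line, harvested 48 h after lipid transfection (Lipofectamine RNAiMAX) of a SMARTpool mixture of siRNAs. The first experiment had 1 library each after siRNAs against Mbnl1 and Mbnl2 together, against Nacc1, and after the non-targeting pool. The second had 2 libraries each, with the letters a and b, after siRNAs against Srrm4, against Zfp871, and after the non-targeting pool. The controls were thus transfected as well. Mbnl1, Mbnl2 and Srrm4 encode splicing regulators, Nacc1 a transcriptional regulator and Zfp871 a zinc finger protein. No source used here says whether libraries a and b came from separate cultures, so p-values measure a spread that may be technical, and the labels do not tie the libraries to the extraction kits they name. In bulk RNA, a change in every cell and a change in the share of cells cannot be told apart.

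A frame shift usually brings a stop codon into frame soon after it. When that stop lies well upstream of the last exon junction, the transcript is a target of nonsense-mediated decay, the pathway that degrades messages with early stops. An exon that brings such a stop with it is often called a poison exon, and genes for splicing factors use poison exons to hold their own protein level. A frame-shifting exon can also be harmless: it can lie in an untranslated region, it can sit near the end of the coding sequence and give the protein another tail, or it can be one of 2 exons of equal length of which the cell uses one or the other, so that the frame is kept either way.

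The account of early and late stops turns on 7 exons, each shown from its first base to the first stop that is in frame when the exon is added to an annotated coding transcript. Capitals mark the stop codon. The exons were matched to GENCODE M21 transcripts and the sequences are from there, while positions are those of the deposited table (mm9). The exons of Rab12, a small GTPase of membrane traffic (chr17:66854329-66854518, minus strand, 190 nt), Fkbp7, a prolyl isomerase of the endoplasmic reticulum (chr2:76505384-76505499, minus strand, 116 nt), Erc1, a scaffold protein of vesicle traffic and synaptic active zones (chr6:119568864-119568930, minus strand, 67 nt), Meaf6, a subunit of histone acetyltransferase complexes (chr4:124784896-124784953, plus strand, 58 nt) and Rdh13, a retinol dehydrogenase (chr7:4396580-4396724, minus strand, 145 nt) bring an early stop. Those of Itga6, the integrin alpha 6 subunit of laminin receptors (chr2:71691591-71691720, plus strand, 130 nt), and Golga4, a golgin that tethers vesicles at the trans-Golgi (chr9:118488660-118488724, plus strand, 65 nt), bring a stop that is not early.
Rab12: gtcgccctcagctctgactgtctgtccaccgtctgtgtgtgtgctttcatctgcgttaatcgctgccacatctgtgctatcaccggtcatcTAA
Fkbp7: gtgatgctTGA
Erc1: gatgaggaggagggtatatgggcaTAG
Meaf6: gtatgtatatTAG
Rdh13: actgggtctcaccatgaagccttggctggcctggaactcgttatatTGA
Itga6: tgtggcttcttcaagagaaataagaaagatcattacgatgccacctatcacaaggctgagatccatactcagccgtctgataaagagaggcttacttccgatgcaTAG
Golga4: ttcacctcacctcgcagtggcatcttcTGA
The stop begins at base 92 of the Rab12 exon, base 9 in Fkbp7, base 25 in Erc1, base 11 in Meaf6 and base 47 in Rdh13. In Itga6 it begins at base 106 of 130 and in Golga4 at base 28 of 65.

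A second set of sequences shows exons that come in pairs of equal length between the same neighbouring exons. Capitals mark the bases at which the exons of a pair differ in an ungapped comparison. The pairs are in Dnm2, the dynamin GTPase that pinches off endocytic vesicles (chr9:21283343-21283481 and chr9:21284851-21284989, plus strand, 139 nt each), Tpm1, a tropomyosin of actin filaments (chr9:66880273-66880348 and chr9:66879758-66879833, minus strand, 76 nt each), Adam23, a neuronal membrane protein of the ADAM family (chr1:63627711-63627801 and chr1:63631939-63632029, plus strand, 91 nt each), and Atp8a1, a phospholipid flippase (chr5:68172227-68172300 and chr5:68170199-68170272, minus strand, 74 nt each).
Dnm2 upstream: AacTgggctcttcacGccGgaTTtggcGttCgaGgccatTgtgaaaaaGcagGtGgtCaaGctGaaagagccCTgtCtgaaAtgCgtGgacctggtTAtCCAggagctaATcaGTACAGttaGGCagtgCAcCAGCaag
Dnm2 downstream: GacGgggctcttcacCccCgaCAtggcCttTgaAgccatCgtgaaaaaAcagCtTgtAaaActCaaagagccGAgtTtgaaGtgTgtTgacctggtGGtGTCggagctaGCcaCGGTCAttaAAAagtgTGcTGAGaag
Tpm1 upstream: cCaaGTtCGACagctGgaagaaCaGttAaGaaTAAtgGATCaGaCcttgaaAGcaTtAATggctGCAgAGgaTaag
Tpm1 downstream: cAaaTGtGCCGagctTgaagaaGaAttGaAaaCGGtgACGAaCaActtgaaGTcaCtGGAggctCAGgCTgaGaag
Adam23 upstream: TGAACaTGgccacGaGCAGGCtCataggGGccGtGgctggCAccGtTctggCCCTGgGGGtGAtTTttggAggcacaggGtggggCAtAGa
Adam23 downstream: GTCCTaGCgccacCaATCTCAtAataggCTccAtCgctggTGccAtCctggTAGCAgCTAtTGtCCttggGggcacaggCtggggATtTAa
Atp8a1 upstream: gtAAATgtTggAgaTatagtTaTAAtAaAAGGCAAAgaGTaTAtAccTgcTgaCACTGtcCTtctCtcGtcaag
Atp8a1 downstream: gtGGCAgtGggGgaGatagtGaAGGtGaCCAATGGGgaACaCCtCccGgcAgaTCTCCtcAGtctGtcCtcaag
The exons of a pair shared 95 of 139 bases in Dnm2, 43 of 76 in Tpm1, 50 of 91 in Adam23 and 38 of 74 in Atp8a1.

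Total counts per library were 44186088 to 63715449, and no pair of libraries held identical counts. Each targeted gene stood lower in its own knockdown, with log2 fold changes of -1.46 for Mbnl1, -1.85 for Mbnl2 and -2.00 for Nacc1 (1 library per group, no test), -1.59 for Srrm4 (edgeR adjusted p = 0.0222) and -1.84 for Zfp871 (edgeR adjusted p = 0.0271). In the Nacc1 knockdown Mbnl1 stood at -0.59, and in the Zfp871 knockdown Srrm4 stood at -0.73 (edgeR adjusted p = 0.099). All 12 listed noradrenergic neuroblastoma markers reached 1 CPM (counts scaled to library size), with sums of 3441 to 4301 CPM per library. Glial markers summed to at most 7.905 CPM, epithelial markers to at most 4.301 and immune markers to at most 1.569, with Aqp4 and Cd3e at 0 in every library. Mesenchymal markers summed to 3.399 to 7.92 CPM in the first and 3.645 to 103 CPM in the second experiment, with Col3a1 at 0 and most of the highest sum from Acta2, smooth muscle actin.

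The exons were 52 to 8104 nt long, with a median of 115 nt in the first and 116 nt in the second experiment. Their control PSI was skewed towards inclusion, with medians of 70.87 and 71.85. In the first experiment 698 lay between 10 and 50, 401 between 50 and 75 and 912 between 75 and 90. Most hosts (1197 of 1546) had 1 such exon and the most in a host was 8. No exon overlapped another. The typical depth was modest, with a median of 99 to 121 reads per exon in the libraries of the first and 103 to 142 in those of the second experiment. For single PSI values of the first experiment, 95% exact (Clopper-Pearson) intervals are given; they are approximate, since the reads are corrected for mappability, and cover counting error only.

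At the edges of the rule, exons of Tipin and Luc7l3 (control PSI 10.05 and 10.06) were just inside in the first experiment and those of Sel1l3 and Zzef1 (10 and 9.986) just outside, while Fbxo9 (89.99) was inside and Zyx (90) outside. Of the 2011 exons of the first experiment, 1792 had enough reads in the second, and 422 of these lay outside the window there. The control levels of these 1792 exons correlated with a Pearson r of 0.96 across exons, which are not independent replicates. The median absolute difference between the control levels was 5.278 points and 51 exons differed by at least 20 points.

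Frame-shifting lengths were less frequent among exons at a control PSI of 10 to 80 than among exons that were nearly always or nearly never included. Of exons over 51 nt with enough reads, 61.45% of those at a control PSI of 90 or more had a length not divisible by 3 in the first experiment, as did 62.62% of those at 10 or less. Among the 3637 exons between these limits the share was 55.29%, and it was lowest at a PSI of 40 to 50, at 44.04% (96 of 218 exons, 95% exact interval 37.34 to 50.9). At a PSI of 80 to 90 it was 62.01% (746 of 1203 exons), no lower than at 90 or more. The second experiment gave 61.66%, 62.23% and 53.38%, with the lowest share of 45.05% at a PSI of 20 to 30 and 58.86% at 80 to 90. The shares are a description over exons, and the second experiment measures largely the same exons in the same cell line.

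**Figure D1:**
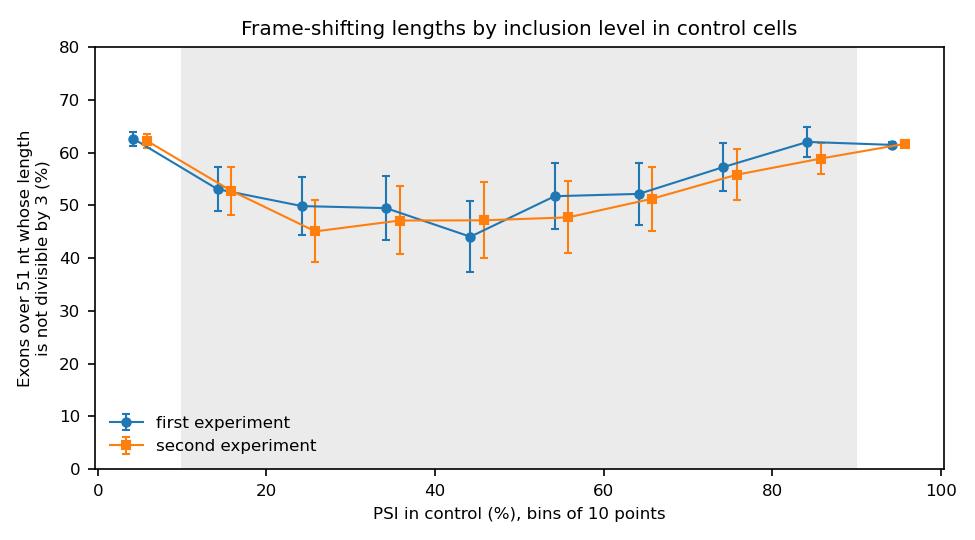
Share of exons over 51 nt whose length is not divisible by 3 (y axis, percent) by PSI in control cells (x axis, bins of 10 points), for both experiments; bars are 95% exact intervals and the shaded window is that of the rule. The share is 62.62% in the lowest bin and 61.45% in the highest bin of the first experiment and 44.04% at a PSI of 40 to 50.

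The annotation gave these exons different outcomes, and the control inclusion level went with the form that is annotated as coding. Of the 2392 exons, 1641 (68.6%) matched an annotated exon by gene, strand, length and both flanking intron lengths. Of these, 942 had annotated coding transcripts only with the exon, 189 only without it, 439 both with and without it, and 71 had none. For 701 of the 942, removing the exon from a coding transcript gave a stop more than 50 nt upstream of the last junction, here called an early stop. No other exon was put in its place, so exons that alternate with an equal-length partner can fall in this class, as those of Atp8a1 do. For 146 of the 189, adding the exon gave one. The exons whose inclusion gives an early stop had a median control PSI of 20.77 (quartiles 14.21 to 31.8, n = 132) in the first and 18.67 (n = 105) in the second experiment. Those whose skipping gives an early stop had medians of 83.48 (68.66 to 87.39, n = 584) and 82.04 (n = 463). Exons with coding transcripts either way lay between, at 55.17 (n = 388) and 60.98 (n = 362). Without the stop criterion, all exons with coding transcripts only without them had medians of 22.09 and 22.27. All exons with coding transcripts only with them had medians of 83.37 and 82.62. These lie close to the medians of the early-stop classes, and the part of the early stop in these levels was not tested. In the annotation, 974 of the exons were wholly coding, 156 lay in 5′ UTRs and 131 held both coding and UTR sequence. Transcripts annotated as decay targets included 381 of the matched exons and skipped 277.

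**Figure D2:**
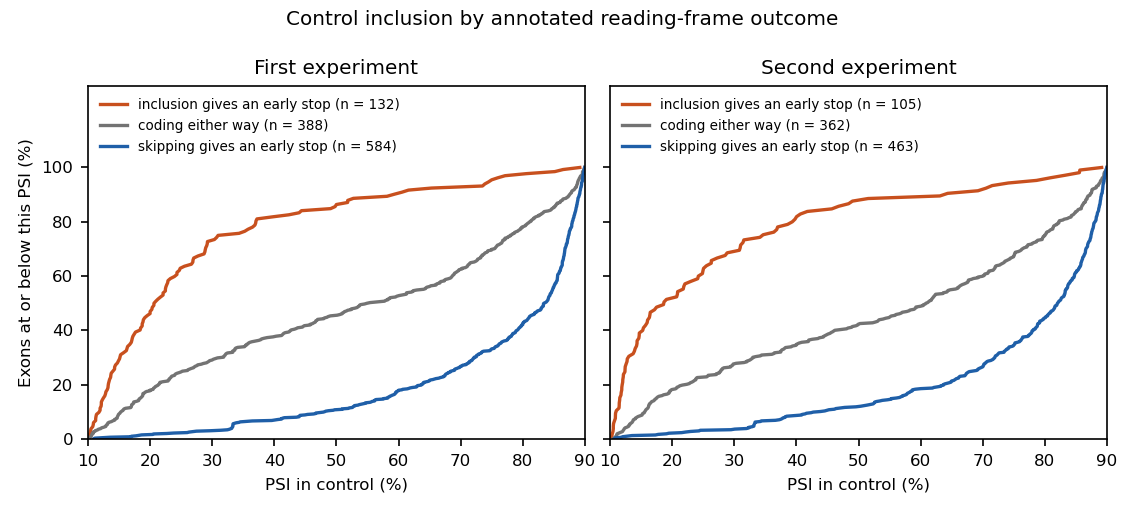
Cumulative share of exons (y axis, percent) by PSI in control cells (x axis, percent) for 3 annotated reading-frame outcomes in each experiment. Exons whose inclusion gives an early stop have a median PSI of 20.77 in the first experiment and those whose skipping gives one have a median of 83.48.

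Some frame-shifting exons came in pairs of equal length, and in Dnm2, Tpm1 and Adam23 the exons of a pair differed from control in opposite directions. The 2392 exons formed 21 pairs of equal length in the same gene, and 11 of these shared both neighbouring exons: Adam23, Atp8a1, Cacna1c, Calu, D3Ertd751e, Dnm2, Fam188a, P4ha1, Snap25, Tpm1 and U2af1. In 9 of the 11 both sequences were found and their identity was 51.35% to 73.73%, against 23.4% to 32.32% in the 6 of the other 10 pairs that could be compared. In 9 of the 11 pairs the control PSI values of both exons summed to between 88.54 and 120.5 in the 3 control libraries, near the 100 that strictly alternating exons give. In D3Ertd751e the sum was 152.5 to 174.1 and in Fam188a 146.2 to 167.7, so both exons were mostly included together.

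In Dnm2 the exon that was used most differed between the control and both knockdowns of the first experiment. The upstream exon stood at a PSI of 61.7 in the control of the first experiment (95% interval 55.02 to 67.71), 9.88 in the Mbnl1 and Mbnl2 knockdown (4.96 to 16.75) and 16.6 in the Nacc1 knockdown (11.01 to 23.46). The downstream exon stood at 40 (34.76 to 45.3), 90.5 (87.32 to 93.14) and 82.6 (78.9 to 85.94). Both exons are wholly coding and skipping either gives an early stop, and the 3 intervals of each exon leave the control apart from both knockdowns. The host gene stood at 79.2, 98.4 and 96.7 CPM. In the second experiment the upstream exon had a PSI of 73.3 and 70.1 in the control, 75.8 and 80.1 in the Srrm4 knockdown and 66.2 and 54.5 in the Zfp871 knockdown. The Srrm4 knockdown libraries lay above and the Zfp871 knockdown libraries below both controls. Between the knockdowns the upstream exon differed by -17.60 points and the downstream exon by 14.76 (edgeR quasi-likelihood adjusted p = 0.853 for both, likelihood ratio adjusted p = 0.0367 and 0.0406).

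The Tpm1 pair differed from control chiefly in the Nacc1 knockdown. Its upstream exon had a PSI of 44 in the control (39.96 to 47.94), 53.2 in the Mbnl1 and Mbnl2 knockdown (48.35 to 58.3) and 71.7 in the Nacc1 knockdown (67.52 to 75.72), while the downstream exon had 58.2, 51 and 31.8. The second experiment gave the upstream exon 35.5 and 32.9 in the control, 33.5 and 27.2 in the Srrm4 knockdown and 47.3 and 43.8 in the Zfp871 knockdown. The Zfp871 knockdown libraries were the highest of these 6. The Tpm1 gene itself stood at 162 and 200 CPM in the Zfp871 knockdown against 81.7 and 111 in the Srrm4 knockdown, a difference of 0.91 on the log2 scale (SE 0.184, edgeR adjusted p = 0.0319). Acta2, which encodes another protein of the contractile cytoskeleton, stood at 29.11 and 101.5 CPM in the Zfp871 knockdown, 1.038 and 6.317 in the Srrm4 knockdown and 3.541 and 14.27 in the control. Acta2 thus also stood higher in library b than in library a of every group. Whether the Tpm1 and Acta2 values are linked was not tested.

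In Adam23 the downstream exon had a PSI of 74.3 in the control (68.2 to 79.7), 37.5 in the Mbnl1 and Mbnl2 knockdown (29.58 to 46.73) and 28.3 in the Nacc1 knockdown (20.59 to 36.28). The upstream exon had 21.1, 35.5 and 51.8, so that in both knockdowns the pair summed to less than in control: 73.03 and 80.06 against 95.31. In Atp8a1 only the downstream exon differed by over 20 points, with 55.8 in the control (44.7 to 66.78), 18.9 in the Mbnl1 and Mbnl2 knockdown (9.524 to 30.44) and 26.2 in the Nacc1 knockdown (18.01 to 36.71). Its upstream partner stood at 64.1, 72 and 69.4, with intervals that overlap. None of the 4 exons of these genes passed either edgeR test in the second experiment; the downstream Adam23 exon ranged from 72.8 to 86.4 and the downstream Atp8a1 exon from 33.5 to 50.9 over the 6 libraries.

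**Figure D3:**
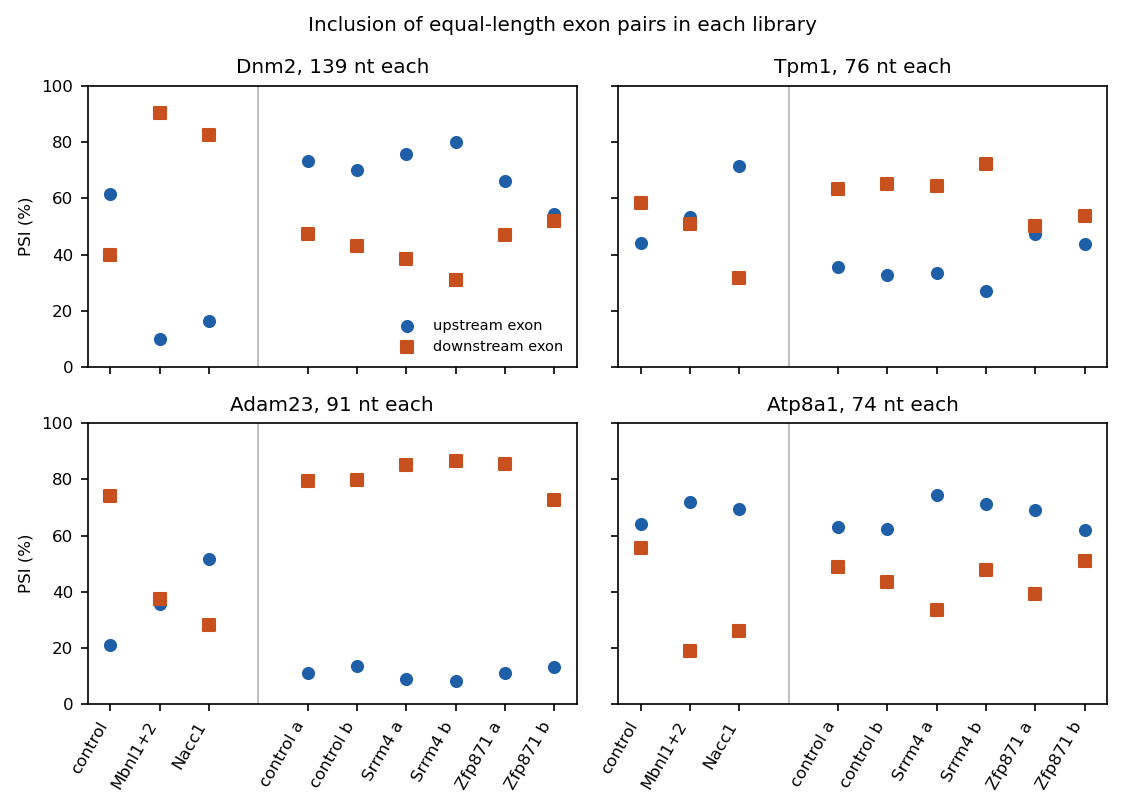
PSI (y axis, percent) of the upstream exon (circles) and the downstream exon (squares) of the equal-length pairs in each of the 9 libraries (x axis), with a vertical line between the first and second experiment. In Dnm2 the exons stand at 61.7 and 40 in the control of the first experiment and at 9.88 and 90.5 in the Mbnl1 and Mbnl2 knockdown.

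The first experiment has 1 library per group, so no p-value is given, and an exon was counted by size when its PSI differed by at least 20 points with 95% intervals that did not overlap. The control PSI by which the exons were chosen also enters these differences, so the counts are a description. Under Mbnl1 and Mbnl2 knockdown 16 of the 2011 exons stood higher by the size rule and 16 lower. Over all 36175 cassette exons with enough reads, the rule took 0.21% higher and 0.323% lower; an exon at a control PSI of 0 or 100 has only one direction to go. Under Nacc1 knockdown 14 stood higher and 29 lower, against 0.127% and 0.37% of all exons. For scale, alternative exons over 51 nt that keep the frame passed in 78 of 1626 cases (4.797%) under Mbnl1 and Mbnl2 knockdown, against 1.591% of the frame-shifting exons, and in 3.998% against 2.138% under Nacc1 knockdown. The same rule applied between libraries a and b of 1 group in the second experiment, where no treatment differs, took 29 of 1751 exons (1.656%) in the control, 18 (1.028%) in the Srrm4 and 23 (1.314%) in the Zfp871 knockdown. The median PSI difference of the frame-shifting exons was -0.78 points under Mbnl1 and Mbnl2 knockdown and 0.04 under Nacc1 knockdown, against 0 for all exons in both. For alternative exons over 51 nt that keep the frame it was -1.07 and -1.357.

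Among exons with a late stop, the 130-nt exon of Itga6 stood at a PSI of 68.9 in the control (66.1 to 71.73, 1073 reads), 7.08 in the Mbnl1 and Mbnl2 knockdown (4.725 to 10.01) and 16.6 in the Nacc1 knockdown (13.93 to 19.7). Its inclusion and skipping give the integrin different cytoplasmic tails, and the gene stood at 326, 226 and 309 CPM. The exon had 66.2 and 66.8 in the control, 82.7 and 84.6 in the Srrm4 knockdown, and 67.5 and 56.1 in the Zfp871 knockdown in the second experiment. Both Srrm4 knockdown libraries lay above the other 4, by 17.15 points over control (edgeR quasi-likelihood adjusted p = 0.394, likelihood ratio adjusted p = 0.00139). The 65-nt exon of Golga4 went the other way in the first experiment, with 29.3 in the control (23.22 to 35.87), 67.8 in the Mbnl1 and Mbnl2 knockdown (60.68 to 74.13) and 44.7 in the Nacc1 knockdown (38 to 51.77).

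Of the 132 exons whose inclusion gives an early stop, 1 stood higher and 1 lower by the size rule under Mbnl1 and Mbnl2 knockdown (1.515%, against 1.591% of all 2011 frame-shifting exons), and 1 higher and 3 lower under Nacc1 knockdown (3.03%, against 2.138%). The Rab12 exon had a PSI of 20.6 in the control (15.7 to 26.4), 50.7 in the Mbnl1 and Mbnl2 knockdown (42.78 to 59.14) and 22.1 in the Nacc1 knockdown (16.16 to 28.87). Rab12 stood at 41 CPM, 28.5 and 40.1, so the library with the high inclusion was the one with the low count, at a log2 fold change of -0.52. The 61-nt exon of Rimkla, which encodes an enzyme that joins glutamate to N-acetylaspartate (chr4:119153597-119153657), had 28.8 in the control (15.42 to 45.9, 38 reads), 0 in the Mbnl1 and Mbnl2 knockdown (0 of 29 reads, upper bound 11.94) and 3.32 in the Nacc1 knockdown (31 reads). Its gene stood at 23 CPM in the control, 33.1 in the Mbnl1 and Mbnl2 knockdown and 23.1 in the Nacc1 knockdown. The Fkbp7 exon had 25.5 in the control (14.98 to 38.44, 59 reads), 39.7 in the Mbnl1 and Mbnl2 knockdown (24.36 to 54.5) and 82.6 in the Nacc1 knockdown (68.64 to 93.03, 42 reads). Fkbp7 is a gene of low abundance, at 3.94, 3 and 1.8 CPM, lowest where the exon was included most (log2 fold change -1.12 under Nacc1 knockdown). These examples do not cover all the exons counted in this class. No common direction of exon and gene can be read from them, and the relation over the whole class is given below.

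Exons whose skipping gives an early stop included the 148-nt exon of Cyfip1, which encodes a subunit of the WAVE actin regulatory complex (chr7:63153195-63153342). Its PSI was 13.6 in the control (9.272 to 19.13), 38.3 in the Mbnl1 and Mbnl2 knockdown (31.16 to 45.57) and 46 in the Nacc1 knockdown (38.83 to 53.68), an exon that is mostly skipped in control although the annotation holds coding transcripts only with it. The gene stood at 112, 98.3 and 80.5 CPM. An 89-nt coding exon of Dgka, a diacylglycerol kinase, had 88.8 in the control (80.63 to 94.98) and 63.6 in the Nacc1 knockdown (42.37 to 80.6, 27 reads), where the gene stood at 6.148 CPM against 13.76 in control. The Dgka gene of the second experiment stood at 13.56, 9.013 and 8.534 CPM in library a and at 6.468, 4.245 and 4.846 in library b of the control, Srrm4 and Zfp871 groups. Its exon had 76.1 and 93.7 in the control libraries and 100 and 75 in the Srrm4 knockdown libraries, on 21 to 59 reads, and the part of such a gap in the Nacc1 values was not tested. Of the 584 exons of this class, 2 stood higher and 2 lower under Mbnl1 and Mbnl2 knockdown (0.6849%), and 5 higher and 9 lower under Nacc1 knockdown (2.397%, near the share of all frame-shifting exons).

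Other large differences fell in coding exons, in unmatched exons and in an exon that no annotated coding transcript was found to include or skip. The 212-nt exon of Arhgap33, a GTPase-activating protein (chr7:31311771-31311982), had 55.5 in the control (49.34 to 61.81), 11.6 in the Mbnl1 and Mbnl2 knockdown (8.037 to 15.92) and 10.2 in the Nacc1 knockdown (7.19 to 13.87), while the gene stood at 113, 172 and 174 CPM. The 298-nt exon of Fam126a, whose protein hyccin is part of a lipid kinase complex (chr5:23471952-23472249), had 51, 55.2 and 10.3, low only in the Nacc1 knockdown library (6.006 to 15.71). The last of these, the 176-nt exon of 1700012B15Rik, had 87, 77.8 and 32.5. The 76-nt exon of Tpm3, another tropomyosin, had 35.2, 48.6 and 80 with 26 to 48 reads. A 1253-nt exon of Rbmx, an RNA-binding protein of splicing (chrX:54639318-54640570), had 33.5 (24.99 to 42.52), 61.1 (53.24 to 68.51) and 43.1, and the gene stood at 29, 47.9 and 37.9 CPM. The Mbnl1 and Mbnl2 knockdown and the Nacc1 knockdown share their control library, so differences in the same direction in both are not independent of each other.

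The authors' deposited table marks more of these exons. Its TRUE flags, whose rule is not stated, cover 156 of the exons under Mbnl1 and Mbnl2 knockdown (8.298% of those with a flag, against 1.559% of all cassette exons) and 183 under Nacc1 knockdown (9.935% against 1.676%). Under Srrm4 knockdown it marks 42 (2.462% against 0.815%) and under Zfp871 knockdown 45 (2.615% against 0.662%). Most other cassette exons stand at a control PSI near 0 or 100, unlike the exons chosen here, so the shares are set side by side only.

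In the second experiment no frame-shifting exon passed the main test. The edgeR quasi-likelihood test on inclusion and exclusion reads, with an adjusted p under 0.05 over all exons tested and a PSI difference of at least 10 points, called 0 of 1751 exons under Srrm4 knockdown, 0 under Zfp871 knockdown and 0 between the knockdowns. Of all 20266 exons tested it called 0.123%, 0.0% and 0.0%. Exons with an unadjusted p under 0.05 numbered 51 (2.913%), 41 (2.342%) and 63 (3.598%), against 5.709%, 4.668% and 5.329% of all exons. The more permissive edgeR likelihood ratio test, which does not allow for uncertainty in each exon's spread, called 19 exons higher and 17 lower under Srrm4 knockdown, against 0.271% and 1.12% of all exons. Under Zfp871 knockdown it called 6 higher and 14 lower, against 0.0938% and 0.819%. Between the knockdowns it called 11 higher and 25 lower in the Zfp871 knockdown, against 0.39% and 0.444%. In the same order it called 2.056%, 1.142% and 2.056% of the frame-shifting exons. Alternative exons over 51 nt that keep the frame were called more often, in 3.859%, 2.354% and 3.009%. Knockdown and control libraries did not overlap for 697 exons under Srrm4 knockdown (39.81%, background 33.0%), 633 under Zfp871 knockdown (36.15%, background 31.1%) and 764 between the knockdowns (43.63%, background 34.3%). This background is all exons tested, also those with a control PSI outside the window of the rule. The shares are therefore set side by side only, and no excess is read from them. Leaving out Zfp871 knockdown library b took the likelihood ratio counts from 20 to 7 under Zfp871 knockdown and from 36 to 10 between the knockdowns, and leaving out Srrm4 knockdown library b took the count under Srrm4 knockdown from 36 to 22.

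The median difference over the 1751 exons was 1.13 points under Srrm4 knockdown (0.58 for library a against a and 1.64 for b against b), -0.48 under Zfp871 knockdown (-1.02 and -0.07) and -1.63 between the knockdowns (-1.34 and -1.63). For all exons tested it was 0, -0.27 and -0.29, and for alternative exons that keep the frame 1.13, -0.89 and -1.88. The control PSI by which the exons were chosen enters both differences from control. Only the difference between the knockdowns is free of it. Differences of at least 10 points numbered 148 higher and 105 lower under Srrm4 knockdown. They numbered 98 and 126 under Zfp871 knockdown, and 80 and 180 between the knockdowns. In the same order these were 14.45%, 12.79% and 14.85% of the frame-shifting exons. The shares of alternative exons that keep the frame were slightly higher, at 15.76%, 13.6% and 15.57%. Libraries a and b of the same group differed by a median of 4.092 to 5.096 points per exon.

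Among exons with groups apart and an unadjusted p under 0.05, the one with the largest difference under Srrm4 knockdown was the 67-nt exon of Erc1. Its early stop is shown above. The Erc1 exon had a PSI of 77.8 and 79.4 in the control, 40.1 and 43.3 in the Srrm4 knockdown, and 62.2 and 67.5 in the Zfp871 knockdown. The 3 groups did not overlap, and the difference under Srrm4 knockdown was -36.98 points (edgeR quasi-likelihood adjusted p = 0.119, likelihood ratio adjusted p = 1.27e-19). Erc1 stood at 88.8 and 104 CPM in the control and 80.5 and 86.3 in the Srrm4 knockdown (a log2 difference of -0.21 with an SE of 0.107, edgeR adjusted p = 0.29). The exon was thus included in most transcripts of control cells although the annotation has coding transcripts only without it.

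The 58-nt exon of Meaf6, which also brings an early stop, had 48.8 and 49.2 in the control, 22 and 26 in the Srrm4 knockdown and 29.7 and 34.7 in the Zfp871 knockdown. Its differences were -25.03 points under Srrm4 knockdown (edgeR quasi-likelihood adjusted p = 0.5, likelihood ratio adjusted p = 2.87e-07) and -16.82 under Zfp871 knockdown (0.888 and 0.0139), with log2 fold changes of the gene of 0.03 and 0.10. The 494-nt exon of Ncor1, a nuclear receptor corepressor (chr11:62147165-62147658), had 79.4 and 76.1 in the control, 49.3 and 57.4 in the Srrm4 knockdown and 72.8 and 68.2 in the Zfp871 knockdown. Skipping it gives an early stop, and the gene stood at 0.04 on the log2 scale under Srrm4 knockdown (edgeR adjusted p = 0.913). In Mpzl1, a cell surface glycoprotein, a 106-nt coding exon had 41.9 and 42 in the control, 57.1 and 59.4 in the Srrm4 knockdown and 36.9 and 38.1 in the Zfp871 knockdown.

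Snap91, which encodes a clathrin assembly protein of synapses, had a 272-nt exon (chr9:86687300-86687571) at 55 and 48.4 in the control, 28.7 and 21.5 in the Srrm4 knockdown, and 36.2 and 33 in the Zfp871 knockdown. The gene fell under Srrm4 knockdown, from 86.9 and 104 to 54.4 and 57.9 CPM (a log2 difference of -0.76 with an SE of 0.115, edgeR adjusted p = 0.0282), while the exon's difference was -26.64 points (edgeR quasi-likelihood adjusted p = 0.341). Wasf3, a WAVE protein of actin assembly, held a pair of exons with opposite differences. Its 176-nt exon (chr5:147272541-147272716) had 77.3 and 83 in the control, 53.2 and 59.2 in the Srrm4 knockdown and 67.7 and 64.4 in the Zfp871 knockdown. Its 170-nt exon (chr5:147277426-147277595) had 20.3 and 16.7, 42 and 39.6, and 27.5 and 33.8. In the first experiment the 170-nt exon stood at 29.4 in the control, 5.32 in the Mbnl1 and Mbnl2 knockdown and 11.4 in the Nacc1 knockdown. The Wasf3 gene fell under Zfp871 knockdown (a log2 difference of -0.63 with an SE of 0.113, edgeR adjusted p = 0.0476) and stood at -0.53 under Srrm4 knockdown (edgeR adjusted p = 0.0532).

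Under Zfp871 knockdown the largest difference among exons with groups apart and an unadjusted p under 0.05 was in a 118-nt exon of Tmem179b. That exon had 90.5 and 87.7 in the control, 81.4 and 86.5 in the Srrm4 knockdown and 63.9 and 62.3 in the Zfp871 knockdown (difference -26.02 points, edgeR quasi-likelihood adjusted p = 0.851, likelihood ratio adjusted p = 1.62e-06). A 151-nt coding exon of Gabbr1, a subunit of the GABA-B receptor (chr17:37204159-37204309), had 78.3 and 79.4 in the control, 70.1 and 84.8 in the Srrm4 knockdown and 50.3 and 59.5 in the Zfp871 knockdown. Skipping it gives an early stop. The Gabbr1 gene fell under Zfp871 knockdown from 50 and 55.8 to 29.3 and 31.1 CPM (a log2 difference of -0.81 with an SE of 0.097, edgeR adjusted p = 0.0232), and also under Srrm4 knockdown (-0.62, edgeR adjusted p = 0.0308), where the exon's 2 libraries lay on either side of the controls. The Rdh13 exon, which brings an early stop, had 11 and 11.9 in the control, 9.39 and 16 in the Srrm4 knockdown and 21.9 and 26.8 in the Zfp871 knockdown, with a log2 fold change of the gene of 0.38 (edgeR adjusted p = 0.388). Between the knockdowns the 112-nt coding exon of Zcrb1, a protein of the minor spliceosome, differed by -31.21 points, with 72.2 and 69 in the Srrm4 knockdown, 47.3 and 31.6 in the Zfp871 knockdown, and 58.4 and 58.9 in the control.

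**Figure D4:**
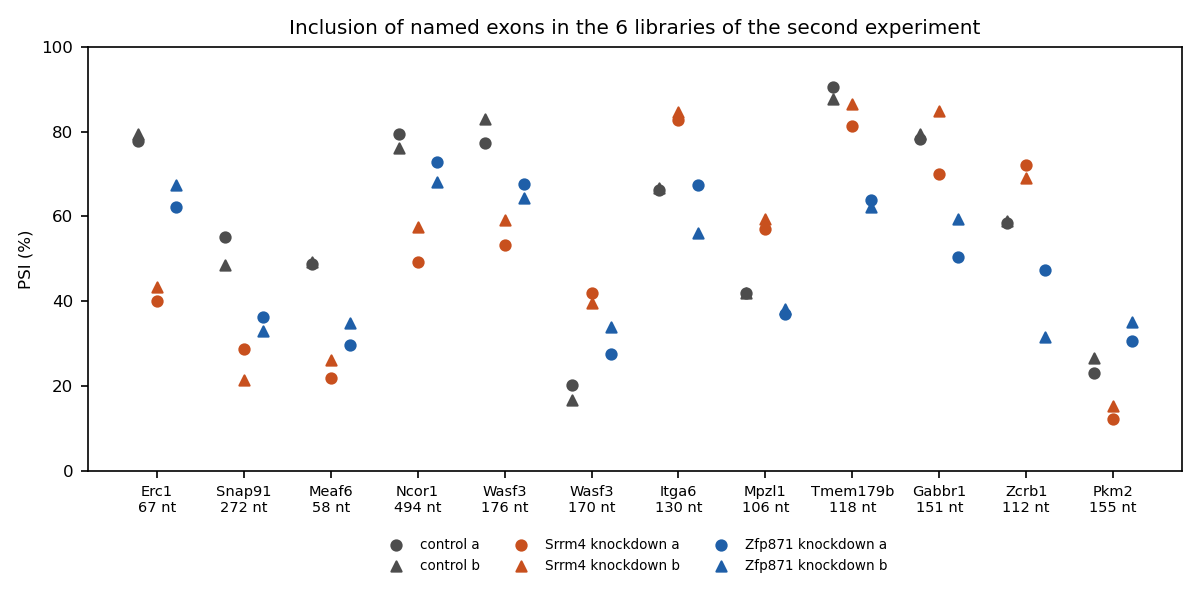
PSI (y axis, percent) of 12 named exons (x axis, gene and length) in the 6 libraries of the second experiment; colours are groups, circles library a and triangles library b. The Erc1 exon stands at 77.8 and 79.4 in the control and at 40.1 and 43.3 in the Srrm4 knockdown.

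Genes for splicing and decay factors hosted a number of these exons, by gene lists chosen with earlier results of these data known. In the second experiment none passed the main test. The kinases that phosphorylate SR proteins (CLK and SRPK) hosted 10 in 5 genes, SR proteins and relatives 11 in 10, core spliceosome genes 6 in 3, hnRNP and PTB genes 5 in 5, factors of nonsense-mediated decay and the exon junction complex 10 in 8, and tissue-regulated splicing factors 18 in 13. The 91-nt exon of Clk1, a kinase whose inactive form lacks this exon (chr1:58476965-58477055), had 43.5 in the control of the first experiment (38.15 to 49.06), 47 in the Mbnl1 and Mbnl2 knockdown (41.68 to 52.66) and 64.6 in the Nacc1 knockdown (59.23 to 69.59), past the size rule. Its values in the second experiment were 58.8 and 80.6 in the control, 57 and 77.3 in the Srrm4 knockdown and 54.9 and 70.5 in the Zfp871 knockdown so library b was above library a in every group. The gap between the control libraries a and b was thus as large as the Clk1 difference under Nacc1 knockdown. A 163-nt exon of Prpf39, a U1 snRNP-associated protein, had 41.7 (35.75 to 48.24), 61.9 (54.2 to 69.46) and 54.2 in the first experiment. A 73-nt exon of Hnrnpa2b1 had 45.9 and 34.2 in the control, 48.6 and 40 in the Srrm4 knockdown and 26.2 and 19.6 in the Zfp871 knockdown, with the Zfp871 libraries lowest (difference -17.16 points, edgeR quasi-likelihood adjusted p = 0.888). Of 29 tissue-regulated splicing factor genes tested, edgeR called 5 lower and 0 higher under Srrm4 knockdown, against 3.29% and 1.41% of all genes. They included Srrm4 itself and Srrm3 (log2 fold change -0.62, edgeR adjusted p = 0.0341). Under Zfp871 knockdown 3 were lower and 0 higher, against 2.14% and 0.751%. The other lists held 1 gene called against control, Hnrnph2, higher under Srrm4 knockdown. The part of these genes in the exon values was not tested.

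Exons in genes of the decay machinery had median differences of 1.01 points under Srrm4 knockdown (range -8.999 to 6.023), 0.99 under Zfp871 knockdown (-18.14 to 5.341), 0.92 under Mbnl1 and Mbnl2 knockdown (-5.184 to 15.16) and 5.93 under Nacc1 knockdown (-14.13 to 10.4). Of 29 genes of this machinery tested, edgeR called 0 under either knockdown of the second experiment, where 3 (Srrm4) and 7 (Zfp871) had an unadjusted p under 0.05 and DESeq2 called 1 and 2. Between the knockdowns 2 were higher (Smg5 and Upf3b, both 0.76) and 1 lower (Etf1, -0.69) in the Zfp871 knockdown by edgeR. Of 13 tested RNAs known to be cleared by this pathway, edgeR called 0 under Srrm4 or Zfp871 knockdown, with median log2 fold changes of 0.22 and 0.11; 6 and 1 had an unadjusted p under 0.05, and DESeq2 called 3 and 1, all higher. None of the genes listed for these RNAs hosts one of the exons.

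In the second experiment host genes were called about as often as other genes. Of 1316 hosts tested in the second experiment, 18 rose and 38 fell under Srrm4 knockdown (edgeR quasi-likelihood test, adjusted p under 0.05), against 1.41% and 3.29% of all 12378 genes. Under Zfp871 knockdown 11 rose and 28 fell, against 0.751% and 2.14%. Between the knockdowns 73 were higher and 80 lower in the Zfp871 knockdown, against 5.53% and 5.57%. Of 1508 hosts of the first experiment, 1 stood higher and 1 lower by a log2 fold change of at least 1 under Mbnl1 and Mbnl2 knockdown, against 0.758% and 0.259% of genes, and 0 higher and 19 lower under Nacc1 knockdown, against 0.406% and 2.97%. The host calls of the second experiment rest on all 6 libraries, which gave 56, 39 and 153 called hosts. Leaving out any 1 library gave 0 to 17 under Srrm4 knockdown, 0 to 21 under Zfp871 knockdown and 0 to 124 between the knockdowns. A fit that also allows for a difference between letters a and b gave 483, 425 and 571. The adjusted p-values of genes given here are from the fit without it.

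Across all hosts, the inclusion difference and the host gene difference went together hardly at all. With 1 exon per host, Spearman's correlation between the PSI difference and the log2 fold change was 0.03 under Srrm4 knockdown and 0.02 under Zfp871 knockdown (n = 1316), and 0.06 under Mbnl1 and Mbnl2 knockdown and 0.02 under Nacc1 knockdown (n = 1508). The points share libraries and both values come from the same reads, so these are descriptions without a p-value. Where a PSI difference reached 10 points, exon and gene differed in opposite directions in 93 of 180 hosts under Srrm4 knockdown, 82 of 166 under Zfp871 knockdown, 128 of 281 under Mbnl1 and Mbnl2 knockdown and 138 of 297 under Nacc1 knockdown.

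Split by what the exon does to the reading frame, the relation stayed weak and its sign differed between the classes. The split was chosen after the data were seen. Where inclusion gives an early stop, Spearman's correlation was -0.20 under Mbnl1 and Mbnl2 knockdown and -0.18 under Nacc1 knockdown (n = 126), and -0.01 under Srrm4 and -0.12 under Zfp871 knockdown (n = 102). Where skipping gives an early stop, it was 0.19 and 0.14 (n = 511), and 0.13 and 0.08 (n = 412). Exons with coding transcripts either way gave 0.05, 0.02, 0.01 and -0.01, and exons that keep the frame 0.01, 0.04, 0.05 and -0.01, in the same order of knockdowns. Under Mbnl1 and Mbnl2 knockdown, hosts with an exon difference of 10 points or more went the opposite way in 16 of 24 cases where inclusion gives an early stop and in 28 of 79 where skipping does. Under Nacc1 knockdown these were 16 of 26 and 37 of 103, under Srrm4 knockdown 10 of 15 and 21 of 52, and under Zfp871 knockdown 9 of 12 and 23 of 60. The knockdowns of an experiment share their control, and the difference between the classes was not tested. Without Srrm4 knockdown library a, the correlation where inclusion gives an early stop was 0.03 in place of -0.01 under Srrm4 knockdown, and without library b of that knockdown it was -0.12. The value of -0.12 under Zfp871 knockdown became -0.02 without control library a and -0.05 without Zfp871 knockdown library a. Where skipping gives an early stop, leaving out each library gave 0.08 to 0.17 under Srrm4 knockdown and 0.05 to 0.11 under Zfp871 knockdown, lowest without control library b and without Zfp871 knockdown library b.

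**Figure D5:**
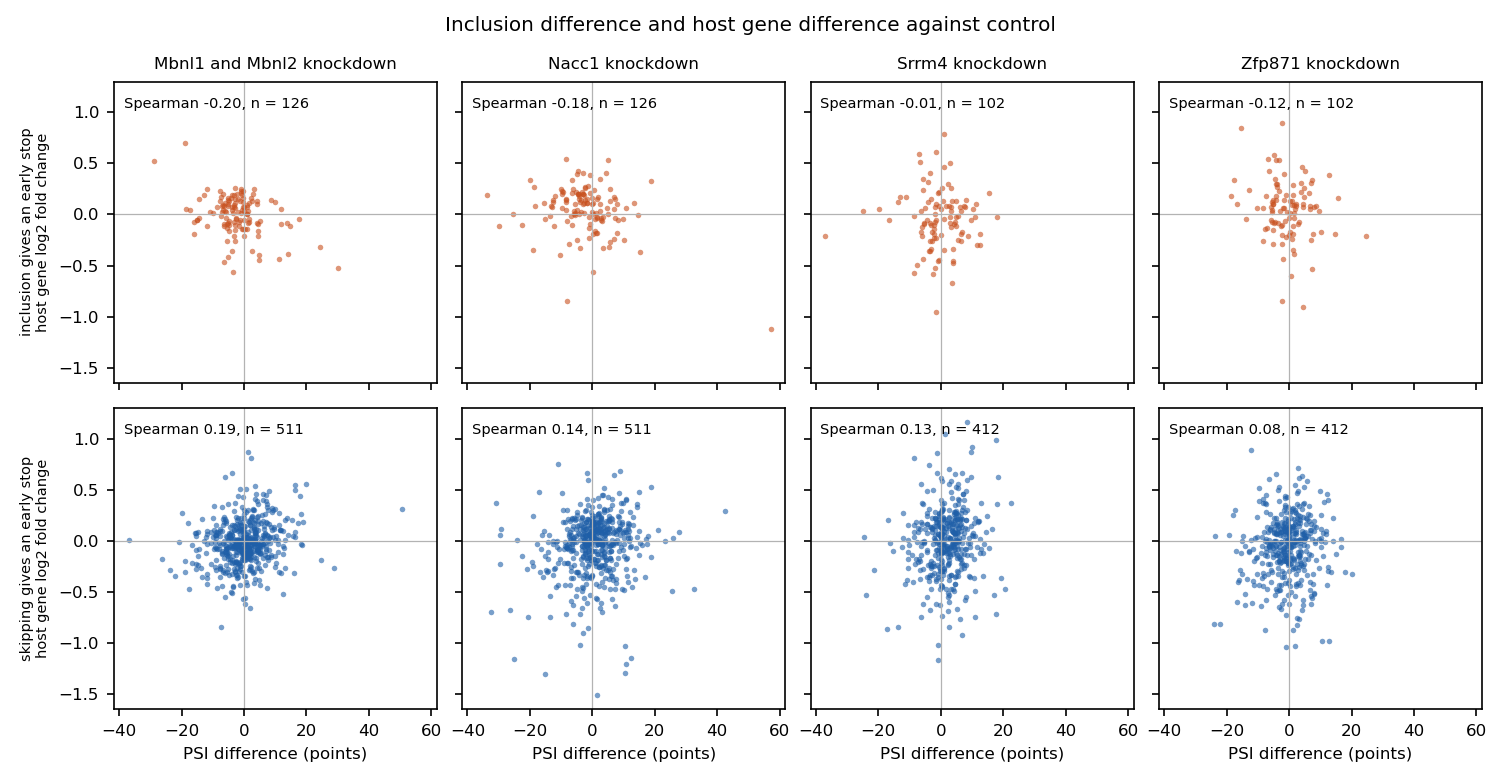
PSI difference of the exon against control (x axis, points) and log2 fold change of the host gene (y axis), 1 point per host, for exons whose inclusion (upper row) or skipping (lower row) gives an early stop in each of 4 knockdowns; each panel gives Spearman's correlation with its n. It is -0.20 and 0.19 under Mbnl1 and Mbnl2 knockdown and -0.01 and 0.13 under Srrm4 knockdown.

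Few exons differed by 10 points or more in a host gene that was itself called by the main gene fit. Under Srrm4 knockdown there were 11, of which 5 went opposite to the gene. For scale, 148 exons stood at least 10 points higher and 105 lower, and 4.255% of all hosts tested were called. An exon can thus meet both limits with or without a link to the gene, and a link was not tested. The examples are given as values only. Besides Snap91, the 67-nt exon of Tfdp2, an E2F partner, stood 12.93 points higher where the gene fell by 1.12 on the log2 scale (SE 0.18, edgeR adjusted p = 0.0325). The 62-nt exon of Nrxn2, a presynaptic adhesion protein, stood at a PSI difference of -11.57 points where the gene fell by 0.97 (SE 0.146, edgeR adjusted p = 0.0279). The 109-nt exon of Arpp21 stood 17.61 points higher where the gene rose by 0.98 (SE 0.16, edgeR adjusted p = 0.0327), and skipping that exon gives an early stop. None of these exons passed the main test.

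Under Zfp871 knockdown there were 8 exons in 7 such hosts, 5 of them opposite to the gene. For scale, 98 exons stood at least 10 points higher and 126 lower, and 2.964% of all hosts tested were called. The 106-nt exon of Kif1c, a kinesin motor, lies in the 5′ UTR (chr11:70515948-70516053) and had 79.6 and 69.2 in the control, 70.7 and 43.8 in the Srrm4 knockdown and 64.7 and 57.5 in the Zfp871 knockdown. The Kif1c gene rose in both, from 19.9 and 19.8 to 46.3 and 43.8 CPM (a log2 difference of 1.18 with an SE of 0.09, edgeR adjusted p = 0.0174) and to 39.1 and 40.5 CPM (1.00, SE 0.09, adjusted p = 0.0218). Both knockdowns are set against the same controls. The 89-nt exon of Fam135a stood 13.62 points higher under Zfp871 knockdown where its gene fell by 1.07 (SE 0.11, edgeR adjusted p = 0.0227), and the Jakmip2 exon of 71 nt stood at a PSI difference of -20.35 points where the gene fell by 1.29 (SE 0.144, edgeR adjusted p = 0.0227). Between the knockdowns 38 exons in 32 hosts met both limits, and 19 went opposite to the gene. There 80 exons stood at least 10 points higher and 180 lower, and 11.63% of all hosts tested were called.

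Under Nacc1 knockdown 11 exons in 10 hosts met both size limits and under Mbnl1 and Mbnl2 knockdown 0 did. For scale, 212 exons stood at least 10 points higher and 216 lower under Nacc1 knockdown, and 1.26% of hosts passed their size limit. All 10 hosts stood lower, among them Fkbp7 and Dgka described above. Eno2, neuronal enolase, held 2 of the exons: the 134-nt exon had 63.4 in the control (59.43 to 67.18), 56.8 in the Mbnl1 and Mbnl2 knockdown and 39.7 in the Nacc1 knockdown (31.38 to 48.21), and the 223-nt exon had 71.9, 64.5 and 51.7. The Eno2 gene stood at 97.2, 87.2 and 24.4 CPM. In the second experiment, where no group differs in treatment between its letters, Eno2 stood at 133, 125 and 80.1 CPM in library a and at 29, 29.6 and 25.9 in library b of the control, Srrm4 and Zfp871 groups. The 134-nt exon had 80.5, 68 and 68.1 in the libraries a and 52.9, 52.5 and 40.5 in the libraries b. Inclusion and gene level of Eno2 were thus lower together in every library b. In the control group both gaps between the letters were as large as the differences under Nacc1 knockdown, and the part of such a difference between libraries in the Nacc1 values was not tested. Ctla2b had a 118-nt exon at 60.8 (51.77 to 69.64), 48.7 and 22.2 (8.622 to 42.26, 27 reads), with the gene at 5.503, 4.785 and 1.283 CPM. The Ctla2b exon in the second experiment had 50.9, 54.9 and 47.3 in the libraries a and 32.9, 36.7 and 24.5 in the libraries b, with the gene at 6.174, 5.699 and 3.776 CPM and at 2.024, 3.392 and 1.231. Exon and gene of Ctla2b were thus also lower in library b of every group, and the part of this in the Nacc1 values was not tested.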

How the data were processed

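PolyA RNA was sequenced from 9 libraries in 6 groups. The submitters' processing notes name the build mm9, CASAVA 1.8 and edgeR. The series design text names vast-tools for splicing, and no source used here gives its version, the aligner or the gene counter. The authors deposited raw read counts per gene, PSI in percent per exon, and a text cell (another unit) that holds the exon's inclusion and exclusion reads, per the file headers; 26 columns of per-library values were not used. TRUE or FALSE flags for differential splicing are the authors'.

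The exons and gene lists were chosen with earlier results of these data known. Exons of the second experiment were tested in R 4.3.3 with edgeR 4.0.16 (quasi-likelihood test, rounded inclusion and exclusion reads, at least 10 reads in each of 6 libraries, PSI of 2 to 98 in at least 1, 1 fit to all 6 libraries, Benjamini-Hochberg adjustment over 20266 exons). Genes were tested on counts (filterByExpr, TMM). Alternatives were a likelihood ratio test (added counts for it were chosen after seeing the data), limma 3.58.1, DESeq2 1.42.0, other thresholds, and leaving out each library. The fits were tested on simulated data. CPM are scaled with TMM factors. In the first experiment, with 1 library per group, exons were counted at 20 points with 95% Clopper-Pearson intervals apart, and genes at a log2 fold change of 1 (prior count 2) with at least 50 counts. Named exons are, per comparison and direction, up to 10 called or with the largest differences among exons past the size rule or with groups apart and an unadjusted p under 0.05, members in listed genes, and those at 10 points or more in called hosts, plus equal-length pairs. Reading-frame outcomes were computed on GENCODE M21 transcripts (GRCm38), with no conversion of coordinates.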

Additional observations from a re-analysis of the deposited data

How the results depend on the processing

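The quasi-likelihood count of 0 exons was also 0 with limma, with a replicate block by letter and without any single library. The likelihood ratio test called 36 exons under Srrm4 knockdown, 20 under Zfp871 knockdown and 36 between the knockdowns. By that test the counts were 71, 62 and 80 with a replicate block, 23, 8 and 26 at a control PSI of 20 to 80, 9, 3 and 14 at a limit of 20 points, and, leaving out each library, 22 to 39, 7 to 26 and 10 to 37. At 10 points the first experiment had 91 exons under Mbnl1 and Mbnl2 knockdown and 122 under Nacc1 knockdown. Called hosts numbered 185, 162 and 277 with DESeq2, 483, 425 and 571 with a replicate block, 0, 20 and 124 with only the 4 libraries compared, and 0 to 17, 0 to 21 and 0 to 124 leaving out each library. Hosts past a log2 fold change of 0.58 numbered 27 and 85.

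The replicate block pairs libraries by letter. Deviations from the group mean correlated between libraries with the same letter over genes (r of 0.749, 0.662 and 0.636) but hardly over exons (0.0418, 0.0384 and 0.0255). No source says what the letters pair, so the block is not the main fit. For genes, the main fit thus leaves out a difference that libraries with the same letter share.

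Spearman's correlation between inclusion and host differences stayed near 0. Under Srrm4 knockdown it was 0.01621 at 50 reads and 0.02235 to 0.0631 leaving out each library. Under Zfp871 knockdown it was 0.06722 at 50 reads and 0.0001423 in hosts with a single such exon, with a Pearson r of -0.01225. Between the knockdowns these were 0.02704, -0.007467 and 0.009906, and -0.01095 to 0.03436 leaving out each library. Where inclusion gives an early stop, leaving out each library gave -0.1172 to 0.02562 under Srrm4 knockdown, and where skipping does, -0.03276 to 0.0708 between the knockdowns. The cause of these shifts was not tested. Depth limits single values: the 95% interval of an exon's control PSI in the first experiment had a median width of 14.77 points, for counting error only.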
